A study of Mus musculus with 6 samples.

Results

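The AP-1 genes considered here were 10 genes of basic leucine zipper (bZIP) transcription factors, namely Fos, Fosb, Fosl1, Fosl2, Jun, Junb, Jund, Atf3, Batf and Maff, out of 23361 genes with a value in mouse taste cells. They were chosen by family membership after lower values of Fos, Jun, Fosb and Atf3 at the older age had been seen in these same data, so their levels and changes are given as a description and no test is made of them. AP-1 is a dimer that binds DNA through the basic region of each partner. Jun proteins can pair with one another or with a Fos protein, whereas Fos proteins need a partner from outside their own subfamily. Several of these genes are immediate early genes, transcribed within minutes of a stimulus and giving short-lived mRNA, and in stratified epithelium AP-1 factors act in the growth and differentiation of keratinocytes.

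The cells came from C57BL/6 mice aged 2 months or 6 months, and the study asked how gene expression in taste cells differs between these ages. The same isolation steps are described for both ages. Cells were isolated from the circumvallate and foliate papillae, the taste bud bearing folds of the back and sides of the tongue. Enzyme had first been injected into the tongue. No transgene or drug separated the groups. Handling time is not given by age, so a difference in handling cannot be told apart from one of age. The labels place 3 sequenced libraries at each age, 6 in all, each made from polyadenylated RNA of cells pooled from several mice, with more mice in a pool at the younger age, while 1 sentence of the design text names 3 months in place of 2. The table used here holds 1 value per gene and age in FPKM (fragments counted on a gene, scaled to its length and to the size of the library), the authors' value over the 3 libraries, so the spread between libraries and the depth behind each value are unknown and no comparison below can be set against replicate error.

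The labelled cell type was checked against its markers. Type II cells, which detect sweet, bitter and umami compounds, were represented by 5 markers summing to 212 FPKM at 2 months against 219 FPKM at 6 months. Type III cells, which make synapses and detect sour, had 6 markers summing to 32.4 and 37.3 FPKM, and the type I (glia-like) markers summed to 76.1 and 66.4 FPKM. The 4 basal keratinocyte markers summed to 3602 and 3618 FPKM, so the material held epithelium as well as taste cells. The 3 endothelial markers summed to 0.383 and 0.399 FPKM. In bulk samples of this kind, fewer cells of a type and less RNA per cell cannot be told apart.

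Fos, Fosb, Fosl1 and Fosl2 make up the Fos subfamily, Jun, Junb and Jund the Jun subfamily, Atf3 and Batf are bZIP partners of Jun proteins, and Maff is a small Maf protein without a transactivation domain. Differences are given as log2(FPKM + 1) at 6 months minus that at 2 months, a scale that understates the difference of low genes, and a gene was counted as lower or higher from 1.5-fold on that scale. Only genes averaging 1 FPKM or more over the ages were counted, and these are called expressed genes here. Of the 10 members, 9 were expressed. Fos, Fosb, Jun and Atf3 were lower at 6 months by at least 1.5-fold, and by at least 2-fold, 0 members were higher, and 5 were neither. Of all 12652 expressed genes, 1.72% were lower by 1.5-fold and 1.05% higher, and 1.04% were lower by 2-fold and 0.561% higher. Because the members were selected with this difference known, nothing is read from the count against those shares. The median difference of the 9 members was -0.54 on the log2 scale, beside -0.01 for all 12652 genes, whose quartiles were -0.10 and 0.08.

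The promoters of the 4 lower members and of Junb are shown because AP-1 and related bZIP factors bind short sites of the TGAC type, so a reader can see which of these letters stand before each start. Each line gives the 120 bases before the RefSeq start (GRCm38.p6), 5′ to 3′ on the gene's strand, with capitals for a bZIP site, whole or in part, or, in Fos, also for the TATA box.
Fos, chr12:85473770-85473889, plus strand: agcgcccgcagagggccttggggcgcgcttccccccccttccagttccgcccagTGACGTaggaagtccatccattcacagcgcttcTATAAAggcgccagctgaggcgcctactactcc
Fosb, chr7:19310046-19310165, minus strand: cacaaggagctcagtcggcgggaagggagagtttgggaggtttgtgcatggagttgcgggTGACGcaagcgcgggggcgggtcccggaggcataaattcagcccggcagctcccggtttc
Jun, chr4:95052223-95052342, minus strand: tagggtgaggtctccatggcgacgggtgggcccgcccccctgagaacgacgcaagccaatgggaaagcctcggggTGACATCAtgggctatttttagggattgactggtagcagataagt
Atf3, chr1:191183334-191183453, minus strand: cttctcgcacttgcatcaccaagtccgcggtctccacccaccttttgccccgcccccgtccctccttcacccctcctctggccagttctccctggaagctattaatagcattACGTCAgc
Junb, chr8:84978749-84978868, minus strand: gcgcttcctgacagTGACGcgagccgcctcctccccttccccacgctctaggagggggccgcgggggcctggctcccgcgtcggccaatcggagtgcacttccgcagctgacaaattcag

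The motifs were searched on both strands in the 250 bases before the start of 11 promoters of 9 members. The AP-1 site TGACTCA was found in none of these promoters, and neither was a CArG box. Letters further upstream were not searched. Fos held TGACG at 129 to 125 and at 66 to 62 bases before the start, the second as part of TGACGT, and TATAAA at 33 to 28. Fosb held TGACG at 60 to 56, and Junb at 106 to 102. Jun held TGACATCA, the Jun-type site, at 45 to 38. The RefSeq start of Atf3 lies within the annotated gene span, 34706 bases from its annotated start. This promoter held TGACGT at 8 to 3 on the strand opposite to the gene, so that the printed line reads ACGTCA there. Both Jun and Atf3 also held a MEF2 site, at 33 to 24 and at 22 to 13.

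Members that did not reach 1.5-fold held such letters too. Batf held TGACGT at 98 to 93 bases before the start, and the promoters of Maff held TGACGTCA at 29 to 22 from one start, TGACATCA at 45 to 38 from another and no match from the third. Fosl2 and Jund had no match to any of the 8 motifs searched. Their RefSeq starts lie 671 bases (Fosl2) and 1210 bases (Jund) from the start of the annotated gene span. The bases directly before that annotated start were not searched, so sites there are not excluded. Of all 32851 promoters in the RefSeq table, 17.8% held TGACG, 6.47% TGACGT, 1.55% TGACGTCA, 4.46% TGACTCA, 2.93% TGACATCA, 12.4% TATAAA, 1.47% a CArG box and 0.508% a MEF2 site. The first 3 overlap, since each holds the one before it. These matches are descriptions of the letters in each window and not evidence of binding.

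**Figure D1:**
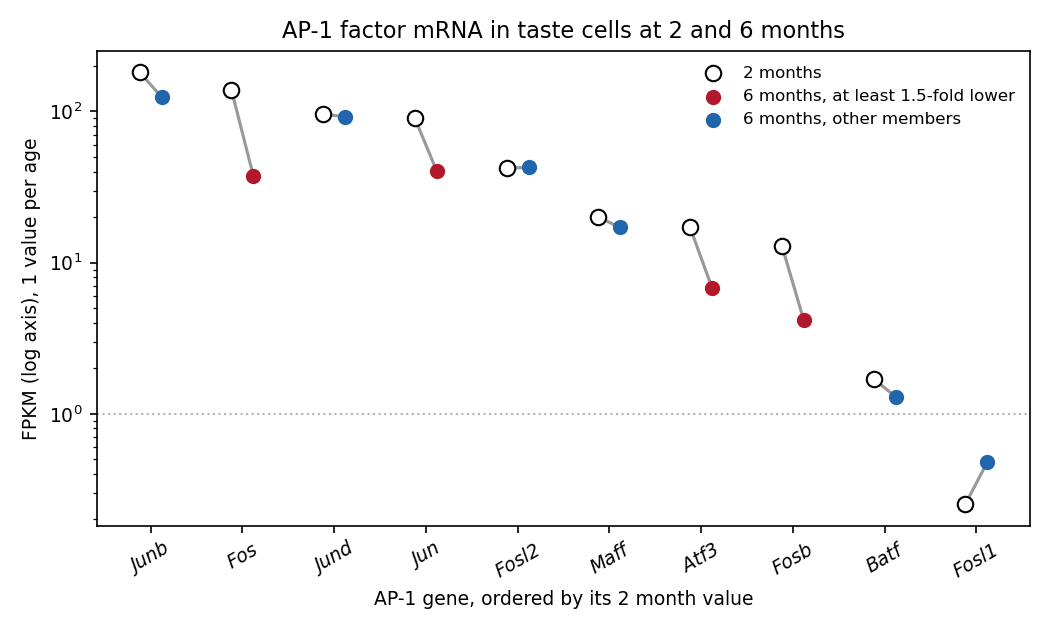
Level of each AP-1 gene in FPKM on a log axis, with 1 value per age and therefore no error bars; open circles are 2 months, filled circles 6 months (red for members lower by at least 1.5-fold), and the dotted line marks 1 FPKM. Junb is the most abundant at both ages, and Fos drops from 139.7 to 37.5 FPKM while Fosl2 is at 42.2 and 42.7 FPKM.

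Fos, the founding member and a classical immediate early gene, was listed at 139.7 FPKM at 2 months against 37.5 FPKM at 6 months. The older value was 26.8% of the younger one, a difference of -1.87 on the log2 scale, the lowest of any member. Only 0.609% of the 12652 genes had a difference that low (rank 77). Among all 23361 genes ordered by FPKM, Fos stood at rank 622 at 2 months and at rank 2396 at 6 months. The gene lies at chr12:85473890-85477273 on the plus strand of GRCm38, directly after the promoter letters printed above, and has 4 exons in its longest transcript.

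Fosb, a close relative of Fos that also responds within minutes to stimulation, was less abundant, at 13.0 FPKM at 2 months against 4.14 FPKM at 6 months. Its older value was 31.9% of the younger one, with a log2 difference of -1.44 at rank 93 from the lowest. It lies at chr7:19302696-19310051 on the minus strand, again with 4 exons. Fos and Fosb were thus both lower, Fosb from a much lower level.

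The other Fos subfamily members, called Fra-1 and Fra-2 as proteins, did not share this direction. Fosl2 was listed at 42.2 FPKM at 2 months against 42.7 FPKM at 6 months, a log2 difference of 0.02 in the middle of all genes (rank 7429). Fosl1 was near the bottom of the table, at 0.252 FPKM at 2 months against 0.480 FPKM at 6 months, below the 1 FPKM limit, and was left out of the counts. Fosl1 (chr19:5447547-5455946, plus strand) also shares 2767 bases of its span with Ccdc85b, listed at 4.87 and 5.29 FPKM, and reads from any shared exon cannot be told apart. Fosl2 lies at chr5:32135801-32157842 on the plus strand.

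The makeup of Fos subfamily mRNA differed between the ages. The summed level of the 4 genes was 195.1 FPKM at 2 months against 84.7 FPKM at 6 months, a log2 difference of -1.20. Fos supplied 71.6% of the sum at 2 months and 44.2% at 6 months, and Fosl2 supplied 21.6% and then 50.3%. Fosl2 was thus listed above Fos at 6 months, though without a spread over libraries that order is not certain. Fos made up 92.7% of the drop, and without Fos the sum was 55.4 and 47.3 FPKM, a log2 difference of -0.23. The statement on the summed subfamily therefore rests on Fos.

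Jun, the main partner of Fos, was listed at 90.3 FPKM at 2 months against 40.1 FPKM at 6 months. That was 44.5% of the younger value, a log2 difference of -1.15 at rank 117 from the lowest. The single exon of Jun lies at chr4:95049034-95052222 on the minus strand. The span of the antisense gene Junos, not analysed here, covers 689 of its bases. A strand setting of the counting is not given in the sources used here, so reads from the pair cannot be told apart.

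Junb, a Jun relative that weakens Jun activity on many targets, was the most abundant member at both ages, with 182 FPKM at 2 months against 125 FPKM at 6 months. Its log2 difference of -0.54 left it just outside the 1.5-fold limit, while Jun, at -1.15, was the nearest member inside it. Only 1.88% of the 12652 genes were as low as Junb. Junb spans chr8:84974484-84978718 on the minus strand, its longest transcript has 1 exon, and its span shares 351 bases with Prdx2 on the opposite strand, itself listed at 438 and 395 FPKM.

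Jund, the Jun gene that is expressed in most resting cells and depends least on stimulation, was listed at 96.6 FPKM at 2 months against 92.0 FPKM at 6 months. The log2 difference was -0.07, within the quartiles of all genes. It is a gene of 1 exon at chr8:70698949-70700616 on the plus strand and overlaps the span of the antisense gene Gm11175, not analysed here, over 919 bases. The 3 Jun genes summed to 368 FPKM at 2 months against 257 FPKM at 6 months, a log2 difference of -0.52, and without Junb to 187 and 132 FPKM. Junb made up 50.9% of that drop, Jun 44.9% and Jund 4.14%. The share of Jun in the sum was 24.5% at 2 months and 15.6% at 6 months, whereas that of Jund was 26.2% and 35.8%.

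**Figure D2:**
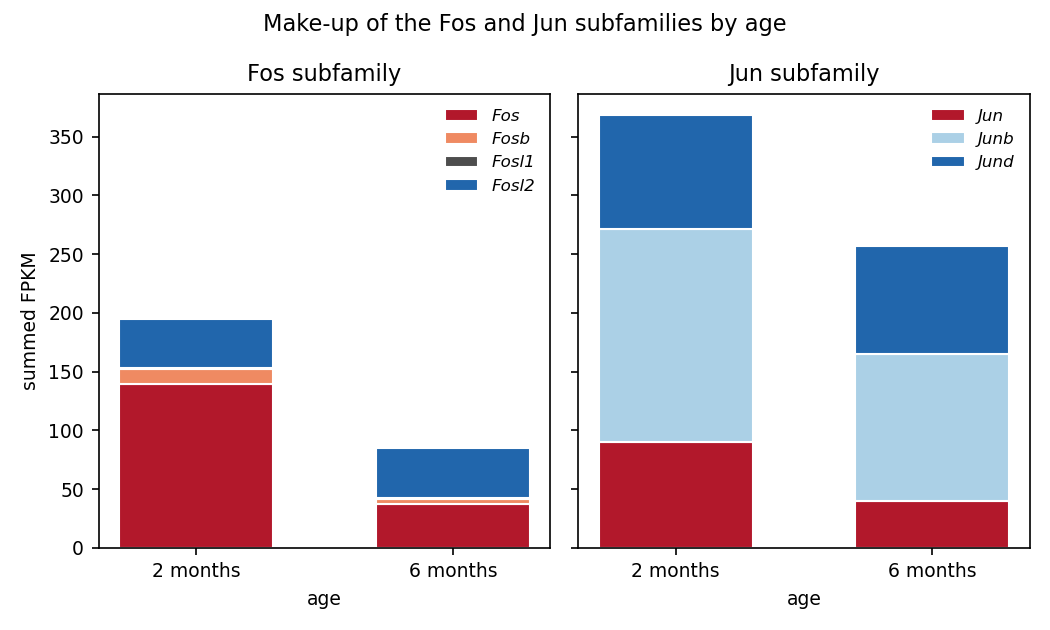
Summed FPKM of the Fos subfamily and of the Jun subfamily at 2 months and 6 months, stacked by gene from 0, with 1 value per gene and age and no error. The Fos segment shrinks from 71.6% to 44.2% of its bar, and the Fosl2 segment keeps its height.

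The summed Fos subfamily stood at 0.529 of the summed Jun subfamily at 2 months and at 0.330 at 6 months. That direction depended on Fos. Without Fos and Junb, the genes with the highest mean in each subfamily, the ratio was 0.296 at 2 months and 0.358 at 6 months, the opposite direction. Leaving out Fos moved the log2 difference of the Fos sum from -1.20 to -0.23. Leaving out Junb moved that of the Jun sum only from -0.52 to -0.50.

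Atf3, a stress-induced factor that represses as a homodimer and forms dimers with Jun proteins, was listed at 17.1 FPKM at 2 months against 6.79 FPKM at 6 months. The older value was 39.7% of the younger, a log2 difference of -1.22 at rank 113 from the lowest. Atf3 spans chr1:191170296-191218039 on the minus strand with 4 exons. Batf, which pairs with Jun proteins mainly in lymphocytes, was close to the limit of 1 FPKM at 1.71 and 1.30 FPKM (-0.24). Maff, a small Maf induced by stress, was listed at 20.0 and 17.1 FPKM (-0.21). Neither reached 1.5-fold. Batf lies at chr12:85686669-85709087 and Maff at chr15:79346621-79359076, both on the plus strand.

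Together the 10 members summed to 602 FPKM at 2 months against 367 FPKM at 6 months, 60.9% of the younger sum. The 4 lower members went from 260 to 88.5 FPKM and the other 6 from 342 to 278 FPKM. Fos made up 43.4% of the difference, Junb 24.1% and Jun 21.3%. In order of level, Fos was the second member at 2 months, after Junb, and the fifth at 6 months, after Junb, Jund, Fosl2 and Jun, while the order below Maff was the same at both ages. Without a spread over libraries, neighbours in that order, such as Fos, Jun and Fosl2 at 6 months (37.5, 40.1 and 42.7 FPKM), cannot be told apart or ranked with any certainty.

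**Figure D3:**
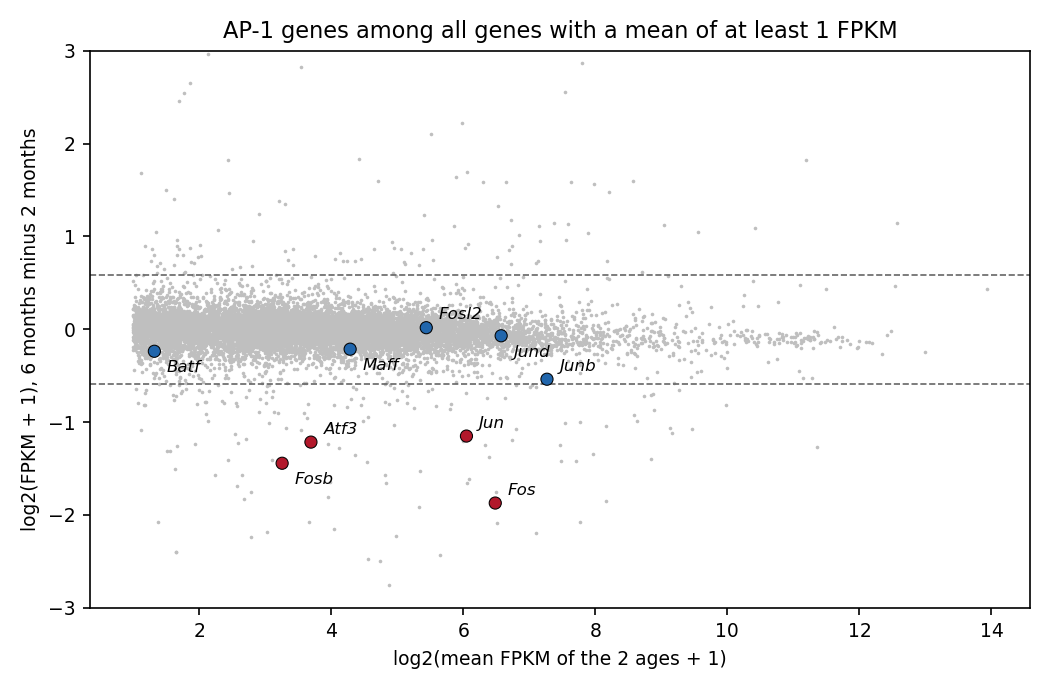
Difference of log2(FPKM + 1), 6 months minus 2 months, against log2 of the mean FPKM of the 2 ages plus 1, for 12564 expressed genes (grey; the other 88 lie beyond the axis) and for the 9 expressed AP-1 genes; dashed lines mark 1.5-fold. Red marks Fos, Fosb, Jun and Atf3, which lie below the lower line, and blue marks the 5 others, with Junb just above it.

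The 1.72% of genes that were lower included many small RNA genes. Of 222 expressed small RNA genes, 70 were lower by 1.5-fold. When these genes and genes listed at 0 at 1 age were left out, a choice made after the values were seen, 145 of 12427 genes (1.17%) were lower, and Fos, Fosb, Atf3, Jun and Junb stood at ranks 27, 38, 54, 57 and 166 from the lowest.

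The genes that lie beside the members on the chromosome were set beside them. Of all 12652 expressed genes, 1.72% were lower by 1.5-fold, so a count of 0 among few neighbours is near that share. Nothing is read from such counts. Within 250 kb of Fos, 7 other genes were expressed, 0 of them lower by 1.5-fold, with log2 differences from -0.24 to 0.12. Around Jun the 2 neighbours stood at -0.01 and 0.04. Around Atf3 the 6 neighbours ranged from -0.13 to 0.06. Fosb and Junb lie in gene-dense stretches, each with 22 such neighbours and 0 lower, over ranges of -0.40 to 0.65 and -0.41 to 0.73. Fos and Batf lie 209.4 kb apart on chromosome 12 with Jdp2, an AP-1 repressor, between them, and the differences along this stretch were -1.87 for Fos, -0.16 for Jdp2 and -0.24 for Batf.

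Of 18 further bZIP partners, 16 were expressed, and 0 were lower and 0 higher by 1.5-fold. Of all 12652 expressed genes, 1.72% were lower and 1.05% higher, and the counts of the lists that follow stand beside the same shares. In a list this small a count of 0 is near those shares, so nothing is read from it. Their median log2 difference was 0.04, with 6 below 0 and 10 above. The largest differences in this list were those of Atf5, a factor of the stress response, at 23.0 FPKM at 2 months against 31.5 FPKM at 6 months (0.44), and Maf, a large Maf factor, at 9.98 and 13.2 FPKM (0.37).

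Upstream of AP-1, kinases of the JNK, ERK and p38 cascades phosphorylate Jun, Fos and the ternary complex factors that act with Srf on the Fos promoter. Of 23 such kinases, factors and ubiquitin ligase components, 22 were expressed, and 0 were lower and 0 higher by 1.5-fold. These counts too are near the shares over all expressed genes, 1.72% lower and 1.05% higher. Their median was -0.01, with 11 below 0 and 11 above. Map2k3, a p38 activator, had the largest difference at 60.2 and 51.0 FPKM (-0.23), and Elk3, a ternary complex factor, followed at 4.68 and 4.13 FPKM (-0.15). These are mRNA levels, and the phosphorylation through which the cascades act was not measured.

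Other immediate early genes were listed separately. Of 38 genes, 33 were expressed, 5 were lower by 1.5-fold and 0 higher, 26 had a difference below 0 and 7 above, and the median was -0.21. Egr1, a zinc finger factor induced together with Fos in many cell types, was listed at 100.1 FPKM at 2 months against 31.1 FPKM at 6 months (-1.65). Zfp36, whose protein destabilises AU-rich mRNAs, was listed at 113 and 54.6 FPKM (-1.03). Cyr61, a matrix-associated signalling protein, was listed at 4.85 and 1.94 FPKM (-0.99). Dusp1, a phosphatase of MAP kinases, and Ier3 were the other 2, at -0.68 and -0.60, and the count was 4 when the ages were scaled to the same upper quartile. The list was not uniform, since Myc stood at 0.04 and the clock gene Per1 at 0.47. As the list was written with results of these data known, its counts are a description.

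**Figure D4:**
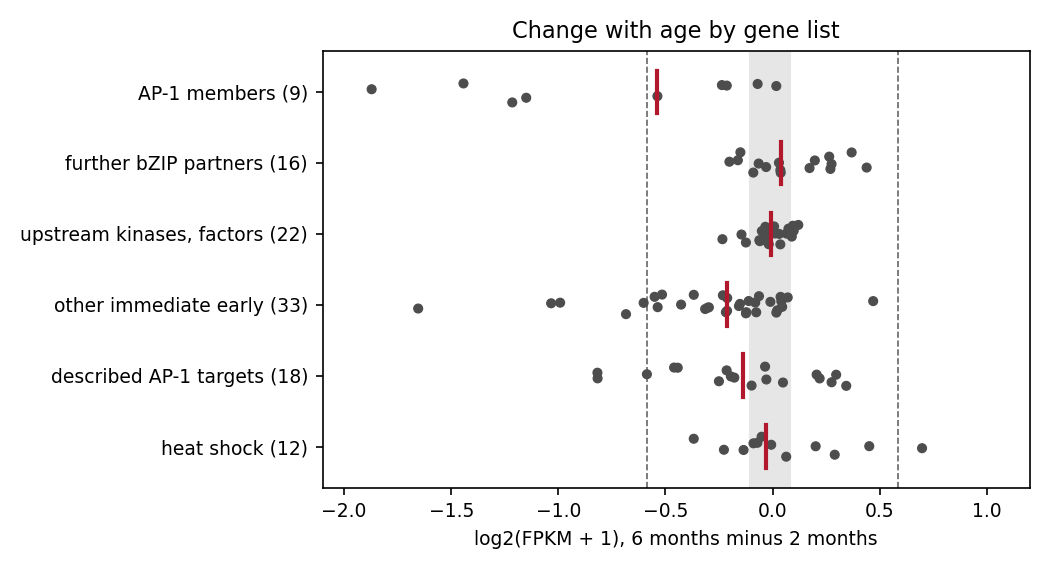
Difference of log2(FPKM + 1), 6 months minus 2 months, for each expressed gene in the AP-1 members and in 5 lists of related genes (number of genes in parentheses); red bars are medians, dashed lines mark 1.5-fold and the grey band spans the quartiles of all 12652 genes, -0.10 to 0.08. The lowest points are Fos at -1.87 and Egr1 at -1.65. The partners and the upstream factors lie between the dashed lines, as do most of all expressed genes.

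Of 24 described AP-1 target genes, 18 were expressed, 3 of them lower by 1.5-fold and 0 higher, with 12 below 0, 6 above and a median of -0.14. Hmox1, which degrades haem, was listed at 27.0 and 14.9 FPKM (-0.82). Lor and Ivl, precursors of the cornified envelope of keratinocytes, were listed at 1292 and 733 FPKM (-0.82) and at 32.9 and 21.5 FPKM (-0.59). The count was 2 under the upper quartile scaling. Hmox1 and Ivl were singled out by the study on these samples and are not independent of them. Lor and Ivl are also markers of differentiated keratinocytes. Il6, Mmp3 and Mmp10 were listed at 0 at both ages.

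Heat shock genes can respond to tissue handling, as immediate early genes do. Of 12 such genes, 0 were lower by 1.5-fold and 1 was higher, with 7 below 0, 5 above and a median of -0.03. The higher gene was Hspa1a, an inducible chaperone, at 29.8 and 49.0 FPKM (0.70), although reads can be split between it and its near-identical copy Hspa1b, listed at 74.4 and 102 FPKM. The part of handling in the AP-1 differences was not tested.

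Markers of other cell types differed between the ages beside the AP-1 genes. Of 9 markers of differentiated keratinocytes, 8 were analysed here and 7 were expressed. With Krt4 counted, 5 of the 7 were lower by 1.5-fold, and all 7 were below 0. Krt4, a keratin of the lining epithelium, was listed at 7334 FPKM at 2 months and at 0 at 6 months. Krt13, its partner, was listed at 0 at both ages. Whether these 0 values were measured or stand for genes left without a value is unknown. No loss of Krt4 and no absence of Krt13 is therefore read from them. Without these keratins, 4 of the other 6 were lower, the median was -0.70, and the sum was 2449 and 1591 FPKM. Cdsn, a protein of corneodesmosomes, stood at -1.19 and Krt10, a keratin of suprabasal cells, at -1.08. Basal keratinocyte markers had a median of -0.07 with 0 of 4 lower. The part of keratinocyte makeup in the AP-1 differences was not tested.

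Of 8 skeletal muscle markers, 6 were expressed, and 5 of them were higher by 1.5-fold, led by Tnnc2 (1.07), Mb (0.90) and Acta1 (0.79). Their level was low, with a sum of 13.0 FPKM at 2 months against 26.0 FPKM at 6 months. Of 6 fibroblast markers, 2 were expressed and Dcn was lower (-0.60), though not under the upper quartile scaling. The sum was 43.6 and 28.7 FPKM, of which Dcn alone supplied 42.0 and 27.3 FPKM. Pdgfra, the other expressed marker, was listed at 1.10 and 1.05 FPKM, so the sum stands for Dcn rather than for fibroblasts. Like Hmox1 and Ivl, Dcn was singled out by the study on these samples. The 5 of 6 leukocyte markers that were expressed were neither lower nor higher, with a sum of 411 and 371 FPKM. The taste cell markers gave medians of -0.21 for type I (2 of 3 expressed), 0.05 for type II and 0.16 for type III, again with 0 past 1.5-fold. The part of these cell types in the AP-1 differences was not tested either.

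**Figure D5:**
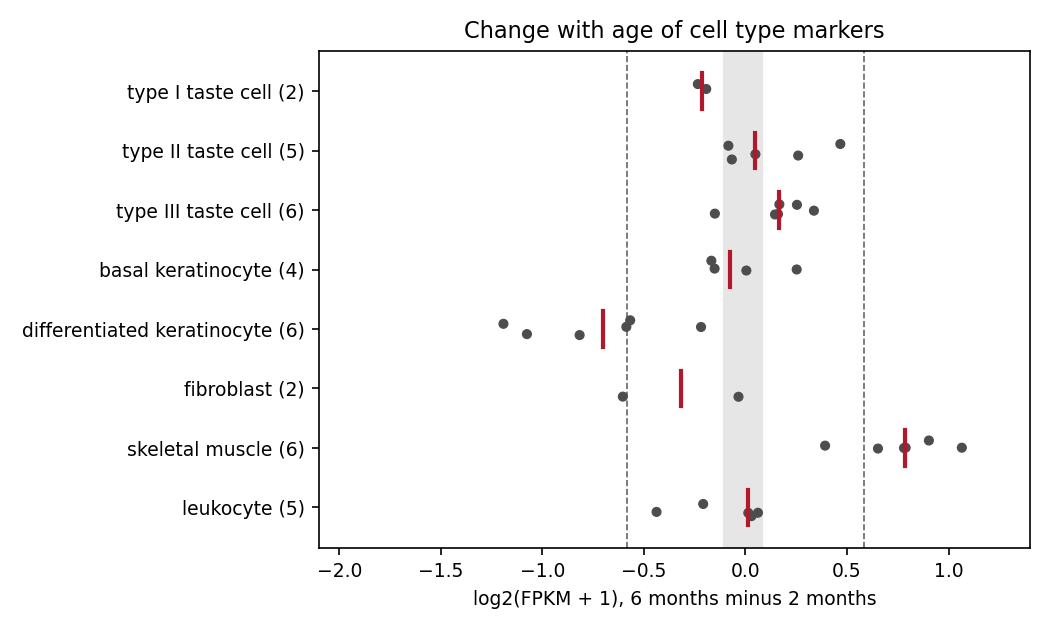
Difference of log2(FPKM + 1), 6 months minus 2 months, for markers of 8 cell types averaging 1 FPKM or more that were listed above 0 at both ages, so Krt4 is not drawn; red bars are medians, dashed lines mark 1.5-fold and the grey band spans the quartiles of all genes. The 6 differentiated keratinocyte markers lie below 0 with a median of -0.70, and the 6 skeletal muscle markers above 0.

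The genes most like each member were found by the distance between their 2 log2(FPKM + 1) values, over 2 ages only, so likeness says no more than a similar level and difference. Fos had 2 genes within 0.25 log2 units, Mir678 and Sbpl, and Mir3091 came next at 0.35. Fosb had Smpd3, Mir692-1 and Sprr2h as its nearest, with 1 within 0.25. Jun had Mir425, Mir203 and Dusp1, with 1 within 0.25, and Atf3 had Nmu, Defb3 and Mir3062, all 3 within 0.25. The Mir genes named here are small RNA genes, a class in which 70 of 222 expressed genes were lower by 1.5-fold. Junb had Tmsb10, Gm1821 and 2410006H16Rik among 14 within 0.25. The members with small differences had many such genes, 182 for Jund, 487 for Fosl2, 393 for Batf and 643 for Maff.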

How the data were processed

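Libraries were prepared from polyadenylated RNA of isolated taste cells with the TruSeq RNA kit, 3 libraries at 2 months and 3 at 6 months. The submitters' processing notes name TopHat2 (2.0.7), Cufflinks (2.1.1) and Cuffdiff and the build GRCm38/mm10. The authors deposited 1 table of 23361 genes that gives FPKM, a single value for each age over its 3 libraries, and a p-value for their own comparison. The p-value column was not used. How the libraries were scaled and whether strand was used in counting are not given in the sources used here. The 2 value columns were matched to the ages by the sample names that stand in all 23361 rows, and 0 value columns were left unmatched. Depth is unknown.

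Values were compared as log2(FPKM + 1). Genes averaging 1 FPKM or more over the ages were counted as lower or higher from 1.5-fold, with 2-fold, a pseudocount of 0.1, no minimum, a minimum of 5 FPKM and other scalings as alternatives. With 1 value per age no test was run. The members and the gene lists were chosen with earlier results of these data known. Named were all members, up to 3 genes in each direction per list past 1.5-fold (otherwise the 2 with the largest difference) and the 3 nearest genes of each member. Dusp1, Ier3, Myc, Per1, Jdp2, Krt4, Krt13, Il6, Mmp3, Mmp10, Hspa1b, the overlapping genes and the bZIP genes of the closing observations were named outside that rule, after their values were seen. Gene positions came from GENCODE vM21 (GRCm38) and promoters from RefSeq (GRCm38.p6), with motifs read by exact letters. In 27 rows the gene name had the form of a date, and none is a member. Python 3.11.15 with numpy 2.4.6, pandas 2.3.3 and matplotlib 3.10.9 was used, and the counting was tested on simulated data.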

Additional observations from a re-analysis of the deposited data

How the results depend on the processing

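No paired analysis was possible because each age has a single value over its libraries, and for the same reason no library could be left out. The counts of 4 members lower and 0 higher were the same at 1.5-fold and 2-fold, with a pseudocount of 0.1, without a minimum, with a minimum of 5 FPKM and under the 2 planned scalings of the 6 month values, to the same upper quartile (factor 1.02) and to the same sum over genes other than small RNA genes (1.07). Of 30 member differences tried, 0 changed direction past the threshold. The sum scaling moved the median of all expressed genes from -0.01 to 0.07, moved no member by more than 0.10 on the log2 scale, and left 7 rather than 8 members below 0, Jund standing at 0.03. The summed Fos subfamily difference was -1.11 and the summed Jun subfamily -0.42 under this sum scaling, and -1.12 and -0.43 when genes listed at 0 at 1 age were left out of the sum as well, a choice made after the data were seen. The Fos subfamily difference was -0.23 without Fos, and the log2 difference of the Fos to Jun ratio was 0.27 without Fos and Junb, the opposite of its main direction. Counts of lower genes moved by 1 in 4 lists and in no other. Under both planned scalings they were 4 rather than 5 for the other immediate early genes, 2 rather than 3 for the described AP-1 targets, 4 rather than 5 for the differentiated keratinocyte markers and 0 rather than 1 for the fibroblast markers. With a pseudocount of 0.1 they were 6 for the immediate early genes and 4 for the targets. Low values, such as those of Fosl1 and Batf, carry the least information, and depth could not be read from the table.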

Other observations

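Among the further bZIP factors, 2 genes were among the most abundant bZIP genes listed, a choice of genes made after the values were seen. Nfe2l2, the activator of the antioxidant response, was listed at 211 FPKM at 2 months against 216 FPKM at 6 months, and Atf4, the effector of the integrated stress response, at 145 and 142 FPKM. On this scale per length Nfe2l2 stood above every AP-1 member at both ages, and Atf4 above every member at 6 months. Cebpb, a C/EBP factor that pairs with several of these proteins, was listed at 33.1 and 40.3 FPKM (0.27 on the log2 scale), and Ddit3, its stress-induced relative, at 19.3 and 23.4 FPKM (0.26). These genes were listed at similar or higher levels at 6 months, beside the lower values of Fos, Fosb, Jun and Atf3, and none reached 1.5-fold.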
